A study of Mus musculus with 9 samples.

Results

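The insulin-like growth factor (IGF) system was examined as 10 genes: the ligands *Igf1* and *Igf2*, the receptors *Igf1r* and *Igf2r*, and the binding protein genes *Igfbp2*, *Igfbp3*, *Igfbp4*, *Igfbp5*, *Igfbp6* and *Igfbp7*. They were found by symbol among the 19481 genes of the deposited table, and all 10 were among the 14725 genes with enough counts to be tested. *Igf2* was selected on measured values, its lower level in the knockdown tumors, so its difference from the control tumors is given as a description and has no test.

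The RNA came from 9 bulk tumors, each started from KLN205 cells (a line of lung squamous cell carcinoma of the mouse) and grown under the skin of a female DBA/2 wild-type mouse that was 6 to 8 weeks old at injection. The cells carried a doxycycline-inducible shRNA in a SMART lentiviral vector, and were selected after transduction, with no cloning step described. There were 3 tumors with a scrambled shRNA (control), 3 with sh2 *Tmprss11b* and 3 with sh3 *Tmprss11b*; *Tmprss11b* encodes a transmembrane serine protease. All 9 mice, controls included, drank water with 2 g/L doxycycline once the tumors were established, and the tumors were taken at day 50.

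IGF1 and IGF2 are secreted growth factors that bind the tyrosine kinase IGF1R, which signals through PI3K and AKT to growth and survival. IGF2R has no kinase: it binds IGF2 and carries it to the lysosome, so it lowers the amount that can reach IGF1R. The binding proteins hold IGFs outside the cell, extend their life and mostly limit their access to the receptor, and in solid tumors both cancer cells and stroma make them.

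The RNA of the targeted gene and the marker genes were checked first. *Tmprss11b*, listed under its older symbol *Tmprss11bnl*, had 18, 51 and 42 counts in control tumors, 7, 2 and 5 in sh2 tumors and 10, 4 and 5 in sh3 tumors, so the labels hold in direction for every tumor. General epithelial markers were high in all 9 tumors, with a summed level of 3760 to 8169 TMM-normalized CPM (counts rescaled to a common library size). The 8 squamous markers summed to 127 to 950 CPM, most of it from *Krt14* (12.3 to 389 CPM), *Krt6a* (46.4 to 292 CPM) and *Pkp1* (47.8 to 221 CPM), which were present in every tumor. Of the others, the basal keratin *Krt5* was at 87.3 CPM in control 1 and at most 5.02 CPM elsewhere, and the desmosomal gene *Dsc3* had 3 counts or fewer in 7 tumors. Skeletal muscle markers stood apart in control 3 (summed level 3083 CPM) and sh3 1 (1049 CPM), with 10.3 to 365 CPM in the other tumors. In bulk tumors, fewer cells of a type and less RNA per cell cannot be told apart. The labels call the 3 tumors of a group biological replicates, and between 20653219 and 24047784 counts were available per tumor.

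*Igf2* lies on chromosome 7 of mm10 at chr7:142650768-142666816 on the minus strand, with 4 annotated start sites in RefSeq (GRCm38.p6) whose reads the gene count pools. The noncoding RNA gene *H19*, which shares its imprinted domain and is expressed from the maternal allele while *Igf2* is expressed from the paternal one, lies 72.6 kb away. The 60 bases before the first and the last of the 4 *Igf2* starts are shown, beside those before the start of *Igfbp6* on chromosome 15 (chr15:102144186-102149512), because *Igf2* and *Igfbp6* had the lowest values relative to the control tumors with sh2. The *Igf2* stretches are chr7:142666817-142666876 and chr7:142657497-142657556 on the minus strand, and that of *Igfbp6* is chr15:102144126-102144185 on the plus strand.
Igf2 start 1: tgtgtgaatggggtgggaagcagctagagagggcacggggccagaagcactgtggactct
Igf2 start 4: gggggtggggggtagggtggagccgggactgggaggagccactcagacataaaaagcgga
Igfbp6 start 1: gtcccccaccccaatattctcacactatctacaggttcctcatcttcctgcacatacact
Nothing is in capitals, as neither motif searched (TATAAA and GGGCGG, both strands) occurs in these 3 stretches. The 60 bases before the third *Igf2* start, not printed here, do hold GGGCGG on the other strand. Over the 300 bases around each start (250 before and 50 after), 14 windows covered the 10 genes. TATAAA occurred in 2 of them, those of *Igfbp4* and *Igfbp6*, and in 13.6% of 32851 RefSeq windows of the same length. GGGCGG occurred in 6 of the 14, including the third and the fourth *Igf2* starts, and in 35.7% of all windows.

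To compare genes with each other, the deposited TPM was used, which divides by gene length. By median, the binding proteins *Igfbp3*, *Igfbp7* and *Igfbp4* had the highest levels of the system and the ligands the lowest. *Igfbp3*, which encodes the main IGF carrier of blood, had a median of 996 TPM over the 9 tumors (range 626 to 1453), followed by *Igfbp7*, a vascular and stromal binding protein of low IGF affinity, at 549 TPM (241 to 626), and *Igfbp4*, an inhibitory binding protein, at 156 TPM (72.3 to 242). The receptors were in the middle, with *Igf2r* at 39.1 TPM (20.7 to 53.6) and *Igf1r* at 23.8 TPM (10.9 to 45.9).
Below them came *Igfbp2* at 14.9 TPM, *Igfbp6*, which prefers IGF2 over IGF1, at 8.61 TPM, and *Igfbp5*, a matrix-bound binding protein, at 7.59 TPM. The ligands were last, with *Igf1* at 3.95 TPM (2.44 to 7.09) and *Igf2* at 0.777 TPM (0.150 to 8.11).
Of the 9 neighbouring pairs in this order, only *Igfbp4* and *Igf2r* had ranges that did not overlap. Within a tumor, *Igfbp3* was above *Igfbp7*, and *Igfbp7* above *Igfbp4*, in all 9. *Igfbp6* was above *Igfbp5* in 4 of 9 and *Igf1r* above *Igfbp2* in 6 of 9. *Igfbp2* was above *Igfbp6* in 7 of 9, as was *Igfbp5* above *Igf1*, so these neighbours were not in a fixed order. In control 2, *Igf2* (8.11 TPM) was above *Igfbp5* (3.89 TPM), so the ligands were last by median and not in every tumor. *Igf2r* was above *Igf1r* in 8 of 9 tumors, with a ratio of TPM from 0.905 in sh3 1 to 2.26 in sh2 3.

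**Figure D1:**
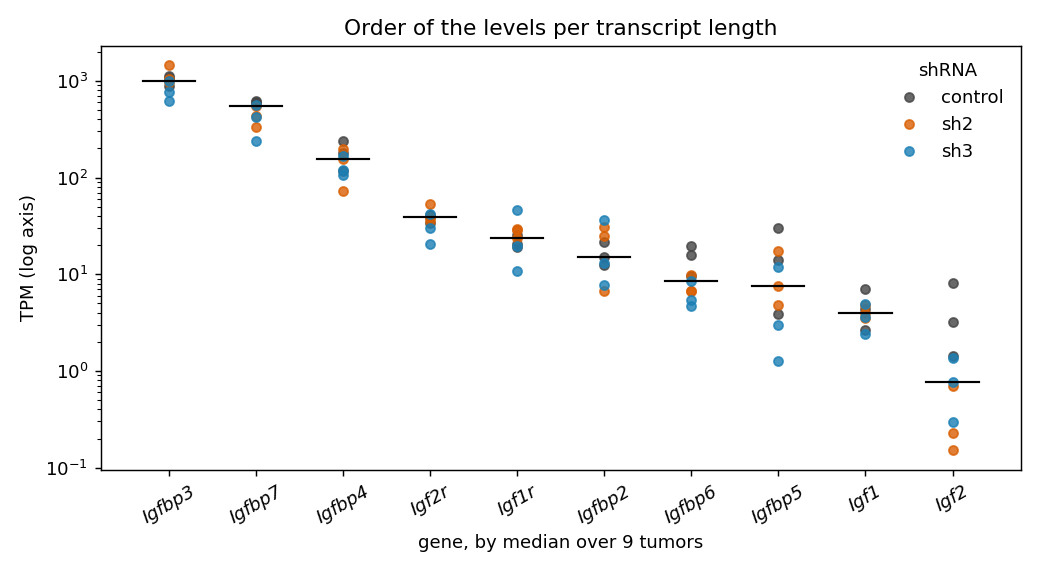
TPM of each gene (log axis) in each of the 9 tumors, ordered by the median, which is the black bar; colours give the shRNA. The 3 leading genes are binding proteins, and *Igf2* in last place spans 0.150 to 8.11 TPM.

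*Igfbp3* and *Igfbp7* together made up 82.9% to 94.3% of the summed TPM of the 6 binding proteins. *Igfbp3* alone held 56.7%, 59.8% and 49.5% in control tumors, 63.4%, 76.6% and 54.5% in sh2 tumors, and 62.0%, 56.0% and 58.7% in sh3 tumors. The highest share, in sh2 2, went with the lowest share of *Igfbp7* (17.7%) and of *Igfbp4* (3.81%), and the groups overlapped.
The summed TPM of the binding proteins was 167 to 517 times that of the ligands, lowest in control 2 and highest in sh2 2. *Igf2* made up 24.4%, 75.4% and 30.9% of the ligand TPM in control tumors, 14.9%, 4.10% and 4.50% in sh2 tumors, and 27.3%, 13.5% and 10.9% in sh3 tumors. In control 2 *Igf2* was the main ligand transcript, and in each of the other 8 tumors it was *Igf1*. The ligand shares and the ratio to the ligands include the *Igf2* values for which the gene was picked, so their differences between groups restate that choice.

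**Figure D2:**
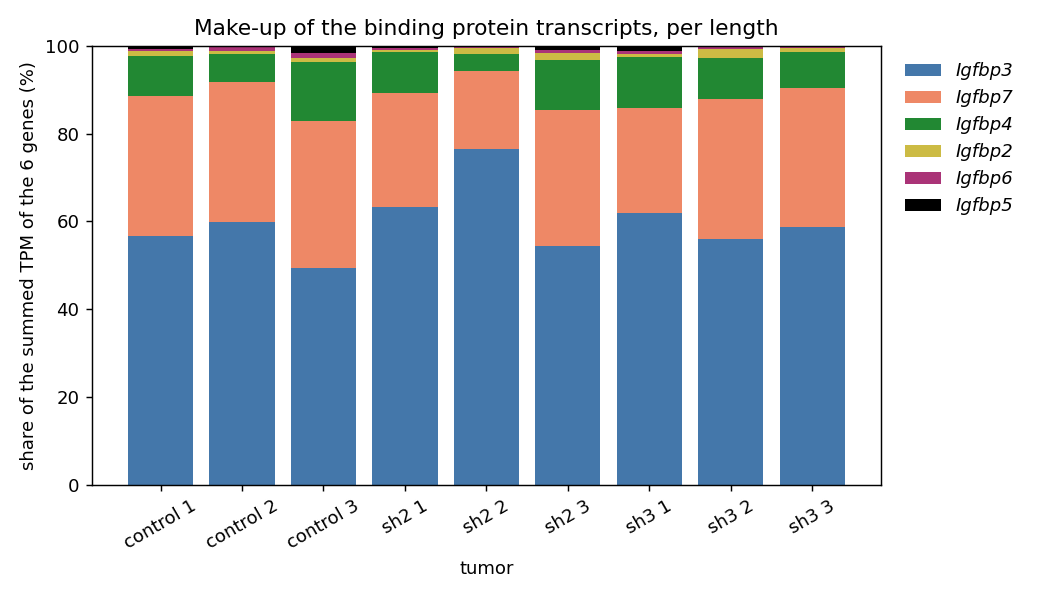
Share of each binding protein gene in the summed TPM of the 6 genes (percent), 1 bar per tumor. *Igfbp3* and *Igfbp7* fill 82.9% to 94.3% of every bar.

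*Igf2* had 61, 353 and 133 counts in control tumors, 29, 6 and 10 in sh2 tumors and 53, 35 and 14 in sh3 tumors. In CPM, the scale used from here on, it was at 2.60, 14.6 and 5.44 in control tumors, 1.22, 0.290 and 0.417 in sh2 tumors, and 2.45, 1.78 and 0.599 in sh3 tumors. Every shRNA tumor was below every control tumor, though the highest sh3 tumor (2.45 CPM) was close to the lowest control tumor (2.60 CPM).
The group means were 7.55 ± 6.28 CPM (SD, n = 3) in control, 0.643 ± 0.505 (SD, n = 3) in sh2 and 1.61 ± 0.937 (SD, n = 3) in sh3, which gave log2 fold changes of −3.54 (SE 0.84) for sh2 and −2.23 (SE 0.78) for sh3. These are the values for which the gene was picked, so the SE is not to be read as a test. Control 2 weighed on them: without it, the log2 fold change was −2.61 for sh2 and −1.33 for sh3. Without sh2 1 it was −4.40 for sh2.
The difference between both shRNA groups was not part of that choice, and here *Igf2* was higher in sh3 than in sh2 by a log2 fold change of 1.31 (SE 0.80), which did not pass the test (edgeR quasi-likelihood FDR = 0.707 over all genes tested, exact permutation p = 0.2). It was 2.15 without sh2 1 and 0.86 without sh3 1, and did not pass in any alternative.
Over all 9 tumors the highest CPM of *Igf2* was 50.4 times its lowest, a range that includes the difference for which it was picked. Within groups, its SD was 1.06 on the log2 CPM scale, beside 1.33 for *Igfbp5*, 1.05 for *Igfbp2* and a median of 0.29 over all genes tested. That median is over genes of all levels, and *Igf2* had as few as 6 counts, where counting error adds more to the SD.
The antisense gene *Igf2os*, which overlaps *Igf2*, had at most 5 counts in any tumor. The library kit marked strand, but whether the counting used it is not given in the sources used here.

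**Figure D3:**
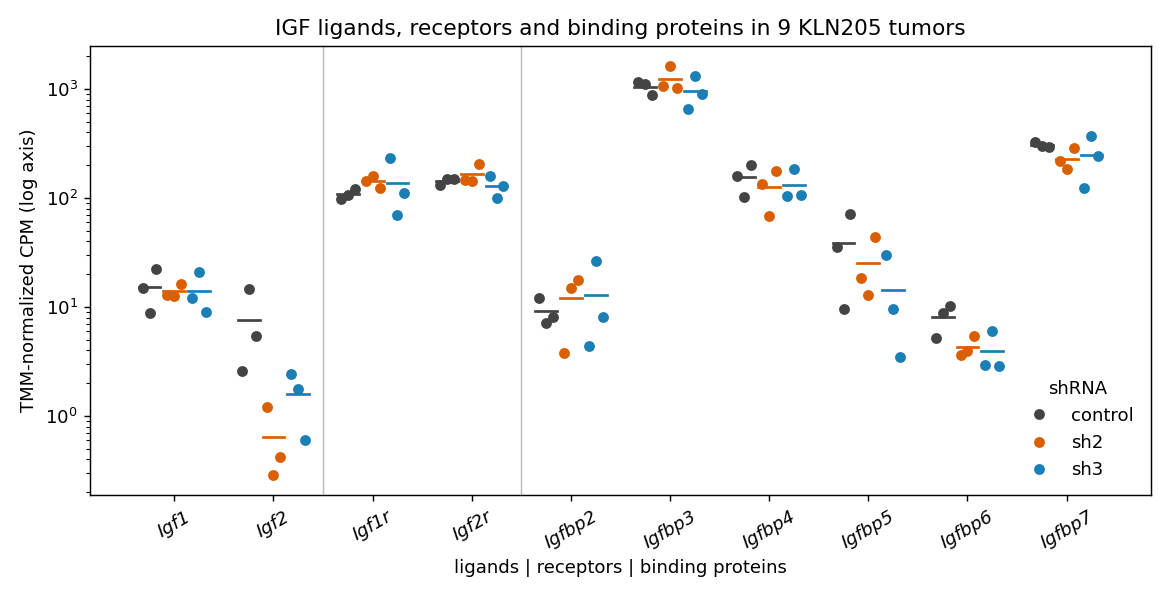
TMM-normalized CPM (log axis) of the 10 genes, 1 point per tumor, coloured by shRNA, with the mean of each group as a bar. The groups overlap for most genes, and for *Igf2* the 6 shRNA tumors lie at 0.290 to 2.45 CPM, below the 3 control tumors at 2.60 to 14.6 CPM.

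*Igf1* (chr10:87858265-87937047), which in most tissues comes from mesenchymal cells and macrophages, was at 14.8, 8.77 and 22.4 CPM in control tumors, 12.8, 12.5 and 16.3 CPM in sh2 tumors and 12.02, 20.98 and 9.07 CPM in sh3 tumors. The groups overlapped fully. The log2 fold change was −0.14 (SE 0.38, FDR = 0.999) for sh2 and −0.13 (SE 0.39, FDR = 0.964) for sh3, and without control 3 it was 0.24 and 0.23.

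*Igf1r* (chr7:67952257-68233668) was at 98.9, 106 and 122 CPM in control tumors, 144, 160 and 123 CPM in sh2 tumors and 234, 70.2 and 111 CPM in sh3 tumors. All sh2 tumors were above all control tumors, by a small margin for sh2 3, while the sh3 tumors held both the highest and the lowest value. The log2 fold change was 0.39 (SE 0.36, FDR = 0.999) for sh2 and 0.35 (SE 0.36, FDR = 0.878) for sh3, and the latter rested on sh3 1, without which it was −0.26.
*Igf2r* (chr17:12682406-12769706) was the steadiest member, at 131, 148 and 150 CPM in control tumors, 146, 144 and 207 CPM in sh2 tumors and 158, 99.6 and 128 CPM in sh3 tumors. Its log2 fold change was 0.21 (SE 0.20, FDR = 0.999) for sh2 and −0.15 (SE 0.20, FDR = 0.901) for sh3. *Airn*, the noncoding RNA gene that overlaps *Igf2r* in antisense, had 7 to 45 counts per tumor. *Insr*, the insulin receptor gene, whose product pairs with IGF1R in hybrid receptors, was at 80.7 to 113 CPM in all 9 tumors, with log2 fold changes of −0.02 (SE 0.15) for sh2 and −0.14 (SE 0.15) for sh3.

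Among the binding proteins, *Igfbp6* had the smallest unadjusted p. It was at 5.23, 8.73 and 10.3 CPM in control tumors, 3.62, 3.91 and 5.42 CPM in sh2 tumors and 2.96, 5.99 and 2.87 CPM in sh3 tumors. In each shRNA group 1 tumor reached above the lowest control tumor. The log2 fold change was −0.91 (SE 0.38) for sh2 (edgeR quasi-likelihood FDR = 0.999) and −1.04 (SE 0.39) for sh3 (FDR = 0.753), so neither passed the threshold over all genes. With the 6 shRNA tumors together it was −0.97 (SE 0.32, FDR = 0.982), and the exact permutation test gave p = 0.0714, where 0.0238 is the smallest p for 6 tumors against 3. Leaving out each tumor in turn kept the log2 fold change between −1.14 and −0.69 for sh2 and between −1.47 and −0.85 for sh3.

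*Igfbp5* varied most among the binding proteins. It was at 35.5, 9.68 and 70.6 CPM in control tumors, 18.5, 12.9 and 44.3 CPM in sh2 tumors and 29.9, 9.50 and 3.51 CPM in sh3 tumors. The control tumors alone differed by more than the groups did. Its log2 fold change was −0.61 (SE 0.85, FDR = 0.999) for sh2, which became 0.16 without control 3, and −1.28 without sh2 3. For sh3 it was −1.43 (SE 0.87, FDR = 0.779), with −2.58 in the absence of sh3 1 and −0.67 in that of control 3, neither past an FDR of 0.05. *Igfbp2*, its neighbour 5.59 kb away on chromosome 1, was at 12.2, 7.12 and 8.02 CPM in control tumors, 3.75, 15.0 and 17.7 CPM in sh2 tumors and 4.39, 26.3 and 8.17 CPM in sh3 tumors. The neighbours differed in their highest tumor, which was control 3 for *Igfbp5* and sh3 2 for *Igfbp2*, while among sh2 tumors sh2 3 was highest for both. The log2 fold change of *Igfbp2* was 0.41 (SE 0.69, FDR = 0.999) for sh2 and 0.50 (SE 0.70, FDR = 0.905) for sh3, and the latter was −0.54 without sh3 2.

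The most abundant binding proteins differed little between groups. *Igfbp3* (chr11:7206086-7215498) was at 1165, 1117 and 875 CPM in control tumors, 1071, 1614 and 1020 CPM in sh2 tumors and 650.5, 1313 and 899.9 CPM in sh3 tumors, with log2 fold changes of 0.23 (SE 0.28, FDR = 0.999) and −0.14 (SE 0.28, FDR = 0.941). Its neighbour *Igfbp1*, 3.54 kb away and mainly a liver gene, had at most 1 count in any tumor.
*Igfbp7* (chr5:77349240-77408045) was at 326, 297 and 294 CPM in control tumors, 217, 185 and 288 CPM in sh2 tumors and 124, 372 and 242 CPM in sh3 tumors. All sh2 tumors were below all control tumors, and the sh3 tumors lay on both sides of them. The log2 fold change was −0.41 (SE 0.34, FDR = 0.999) for sh2 and −0.31 (SE 0.34, FDR = 0.880) for sh3, and without sh3 1 the latter was 0.01. *Igfbp4* (chr11:99040005-99052655) ranged from 68.0 CPM in sh2 2 to 202 CPM in control 3, with log2 fold changes of −0.29 (SE 0.38, FDR = 0.999) and −0.23 (SE 0.38, FDR = 0.923).

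**Figure D4:**
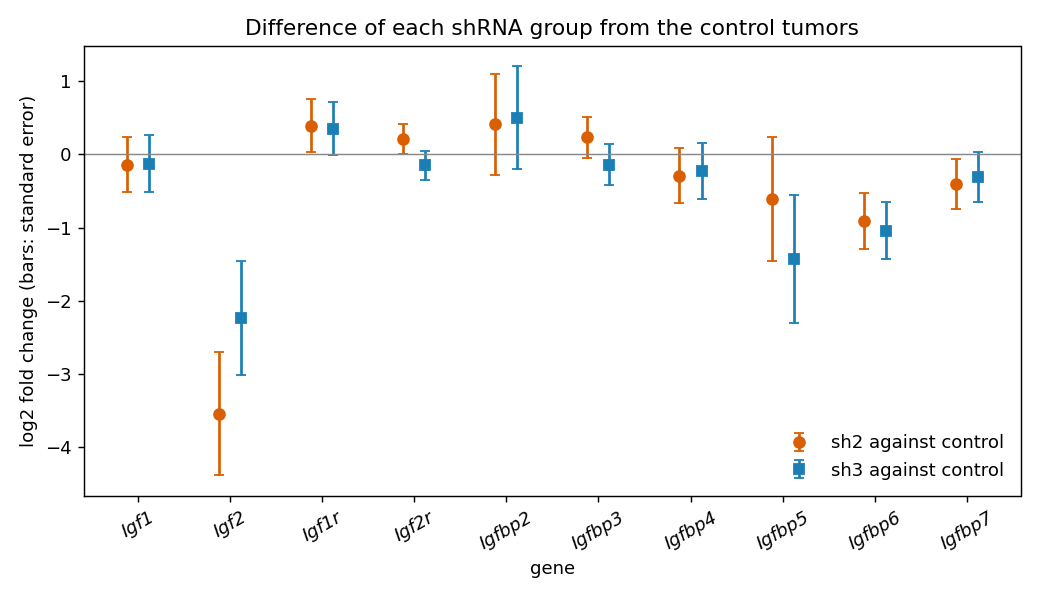
Log2 fold change of each gene against the control tumors, with the standard error as bars, for sh2 (circles) and sh3 (squares). The bars of *Igf2* are not a test, as it was picked for this difference. Both comparisons use the same 3 control tumors; *Igf2* is at −3.54 and −2.23, *Igfbp6* at −0.91 and −1.04, and the other genes lie between −1.43 and 0.50.

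As a group the 10 genes had a median log2 fold change of −0.22 for sh2, −0.19 for sh3 and −0.20 for both shRNAs, beside 0.01, 0.03 and 0.02 over all genes tested. For sh2, 6 of the 10 were lower and 4 higher, beside 48.2% of all genes lower. For sh3, 8 were lower and 2 higher, beside 45.1% of all genes lower. Both comparisons share the control tumors, and *Igf2* was chosen to be lower in each.
None of the 9 genes other than *Igf2* passed an FDR of 0.05 with edgeR's quasi-likelihood test against control, where 0% of all genes passed, and 1 of them, *Igfbp6*, had an unadjusted p under 0.05 in each comparison, beside 3.52% of all genes for sh2, 6.63% for sh3 and 4.09% for both shRNAs. Over all genes, DESeq2 called 2 for sh2, 41 for sh3 and 9 for both shRNAs, and the edgeR likelihood ratio test called 0, 8 and 8, with none of these 9 genes among them.
*Igf2* was picked for its lower level in the shRNA tumors, which favours groups that do not overlap, so its separation is not counted here. Of the other 9 genes, *Igfbp7* had every sh2 tumor below every control tumor, beside 5.83% of all genes, and *Igf1r* had every sh2 tumor above, beside 5.58%. None of the 9 had every sh3 tumor, or every tumor of both shRNAs, below every control tumor, beside 5.42% and 0.958% of all genes. With 3 tumors against 3, the smallest p of the exact test is 0.1.
Between sh3 and sh2, 5 of the 10 were higher and 5 lower (45.1% of all genes lower), with a median log2 fold change of −0.01. None passed the FDR threshold (0% of all genes), none had an unadjusted p under 0.05 (7.18% of all genes), and the lowest FDR of the members was 0.683, for *Igf2r* at −0.37 (SE 0.20). DESeq2 called 48 genes and the edgeR likelihood ratio test 14 in this comparison, none of them a member.

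IGF bioavailability and receptor genes outside the 10 were compared by a list of 15, of which 14 were in the table and 9 were tested. The list also holds *Insr* and the RNA-binding protein genes *Igf2bp1*, *Igf2bp2* and *Igf2bp3*, so its counts are not a measure of IGF supply alone. None passed an FDR of 0.05 in any comparison. For sh2, 3 were higher and 6 lower, with a median log2 fold change of −0.07, and for sh3, 3 were higher and 6 lower, with a median of −0.15. Among all genes tested, 48.2% and 45.1% were lower.
*Pappa*, which encodes a protease that cuts IGFBP4 and so frees IGF, was at 38.0 to 52.6 CPM in control, 17.5 to 41.2 CPM in sh2 and 6.15 to 71.8 CPM in sh3, with log2 fold changes of −0.69 (SE 0.70) and −0.35 (SE 0.69). *Stc1*, a stanniocalcin gene whose family inhibits that protease, was at −0.47 (SE 0.27) and −0.45 (SE 0.27).
*Htra3*, a secreted serine protease gene, had a log2 fold change of −0.31 (SE 0.30) for sh2 and −0.68 (SE 0.30, FDR = 0.753) for sh3. *Igf2bp2*, an RNA-binding protein gene named for binding *Igf2* mRNA, was at 0.41 (SE 0.31) and 0.34 (SE 0.31).
The genes left untested for low counts were *Igfbp1*, *Igfbpl1*, *Igfals*, *Ins1* and *Pappa2*.

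Of 24 genes of signalling below IGF1R, all were tested and none passed an FDR of 0.05 in any comparison. For sh2, 14 were higher and 10 lower, with a median log2 fold change of 0.02, and for sh3, 11 were higher and 13 lower, with a median of −0.01. The shares lower among all genes tested were 48.2% and 45.1%. Their summed level was 2578 to 2638 CPM in control, 2623 to 2837 CPM in sh2 and 2492 to 2800 CPM in sh3.
*Irs2*, an adaptor that links the receptor to PI3K, had log2 fold changes of −0.63 (SE 0.36) for sh2 and −0.64 (SE 0.36) for sh3. The receptor-binding adaptors *Grb14* and *Grb10* were at −0.90 (SE 0.41) and −0.21 (SE 0.24) for sh2, and at −0.32 (SE 0.41) and −0.71 (SE 0.25) for sh3. *Eif4ebp1*, a translation inhibitor under mTOR control, was at 0.15 (SE 0.18) for sh2 and 0.42 (SE 0.18) for sh3.

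Since *Igf2* is imprinted, 20 other imprinted genes were listed, and 15 of them were tested. None passed an FDR of 0.05. For sh2, 4 were higher and 11 lower, with a median log2 fold change of −0.33, and for sh3 again 4 were higher and 11 lower, with a median of −0.78. Of all genes tested, 48.2% were lower for sh2 and 45.1% for sh3, with medians of 0.01 and 0.03. An unadjusted p under 0.05 was reached by 4 of the lower ones for sh3 and by none for sh2, where 3.13% and 1.87% of all genes were lower at that p.
*H19* was at 37.9, 2.90 and 202 CPM in control tumors, 17.3, 6.47 and 10.97 CPM in sh2 tumors and 73.7, 7.77 and 9.92 CPM in sh3 tumors. The tumor with the most *Igf2*, control 2, had the least *H19*. Its log2 fold change was −2.80 (SE 1.32, FDR = 0.999) for sh2 and −1.41 (SE 1.25, FDR = 0.849) for sh3. The microRNA gene *Mir675*, which lies in the first exon of *H19*, had a row of its own with 6 to 419 counts.
*Peg10*, an imprinted retrotransposon-derived gene, was at 1.57 to 3.19 CPM in control, 1.54 to 2.46 CPM in sh2 and 0.599 to 0.965 CPM in sh3. It was lower in every sh3 tumor than in any other tumor (log2 fold change −1.46, SE 0.40, FDR = 0.753), at 20, 19 and 14 counts. Every sh3 tumor was below every control tumor for 5.42% of all genes, and the share below both other groups was not computed. *Meg3*, an imprinted noncoding RNA, was at −0.73 (SE 0.63) for sh2 and −1.63 (SE 0.65) for sh3. The amino acid transporter gene *Slc38a4* was at −2.0 (SE 1.26) and −1.46 (SE 1.23). Its counts were 13, 3 and 153 in control tumors, 19, 14 and 6 in sh2 tumors and 37, 3 and 15 in sh3 tumors, so control 3 weighed on these values.

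Markers of other cells moved with some of these genes. The 11 skeletal muscle markers summed to 365, 25.4 and 3083 CPM in control tumors, 129, 55.6 and 10.3 CPM in sh2 tumors and 1049, 93.3 and 165 CPM in sh3 tumors. The same tumors, control 3 and sh3 1, led for *H19*, whereas control 2, which led for *Igf2*, had the lowest muscle sum of the control tumors. All 10 muscle markers tested were lower in sh2 and in sh3, and the stem cell marker *Pax7* had no count outside control 3.
The 7 adipocyte markers summed to 41.3, 89.7 and 67.9 CPM in control tumors, 9.22, 8.55 and 66.3 CPM in sh2 tumors and 20.5, 19.1 and 8.55 CPM in sh3 tumors, and their highest tumor, control 2, was also that of *Igf2*. Apart from sh2 3, the shRNA tumors lay below the control tumors, and sh2 3 was at 0.417 CPM for *Igf2*. In sh2 1, sh2 2, sh3 2 and sh3 3, 5 of the 7 genes had 3 counts or fewer. There *Fabp4* made up most of the sum, at 8.80, 8.02, 17.7 and 8.30 CPM. All 6 adipocyte markers tested were lower in each group, and none passed an FDR of 0.05.
The 10 fibroblast markers summed to 3710 to 6336 CPM in control, 2939 to 4805 CPM in sh2 and 1610 to 2902 CPM in sh3. For sh2, 9 of 10 were lower (median log2 fold change −0.37), and for sh3 all 10 were lower (median −0.98). An unadjusted p under 0.05 in the lower direction was reached by 6 of the 10 fibroblast markers, 5 of the 6 adipocyte markers and none of the muscle markers for sh3 (3.13% of all genes), and by 5 of the 10 muscle markers and none of the other 2 lists for sh2 (1.87% of all genes). *Igfbp6* went with the fibroblast marker sum in some tumors and not in others. Control 1 had the highest sum and the lowest *Igfbp6* of the control tumors. Among sh2 tumors, sh2 3 was highest for both the sum (4805 CPM) and *Igfbp6* (5.42 CPM). The sh3 tumors had the same order for both, with sums of 2131, 2902 and 1610 CPM and *Igfbp6* at 2.96, 5.99 and 2.87 CPM. Whether the level of fibroblasts, fat or muscle plays a part in the values of *Igf2*, *Igfbp5* or *Igfbp6* was not tested.
The 9 macrophage markers summed to 2671 to 3004 CPM in control, 1509 to 2597 CPM in sh2 and 1047 to 5429 CPM in sh3. The marker sum and *Igfbp7* shared their lowest tumor (sh3 1) and their highest (sh3 2), but sh3 3 was above every control tumor for the sum (3505 CPM) and below every control tumor for *Igfbp7*. For sh2, 8 of the 9 macrophage markers were lower and for sh3 4 were. The 8 endothelial markers (summed level 179 to 313 CPM) were lower in 5 cases for sh2 and in all 8 for sh3, and the 7 pericyte and smooth muscle markers (247 to 540 CPM) in 3 and in all 7. Of 7 squamous markers tested, 7 were lower for sh2 and 6 for sh3, and of 7 general epithelial markers, all were higher for sh2 and 4 for sh3. None of these markers passed an FDR of 0.05. Beside all marker lists, 48.2% of all genes tested were lower for sh2 and 45.1% for sh3.

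**Figure D5:**
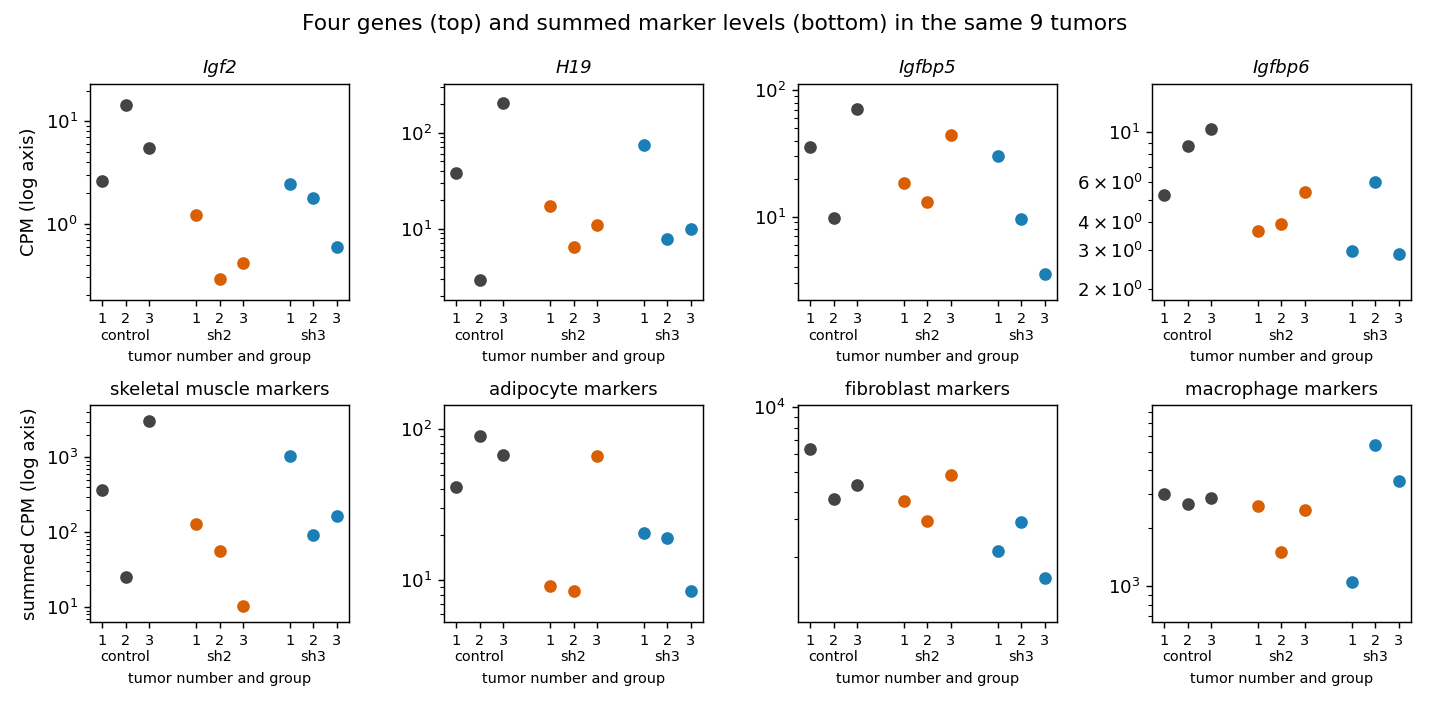
CPM of *Igf2*, *H19*, *Igfbp5* and *Igfbp6* (top, log axes) and summed CPM of skeletal muscle, adipocyte, fibroblast and macrophage markers (bottom, log axes) in the same 9 tumors, by group and tumor number. *H19* and the muscle sum share their highest tumor, control 3, while *Igf2* and the adipocyte sum are highest in control 2.

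The genes whose log2 CPM was most like that of *Igf2* were sought among 13617 other genes whose mean CPM was 1 or more, by Pearson correlation over the 9 tumors. They were *Fam78b* (r = 0.909), *Ism1*, which encodes a secreted protein (0.908), *Aatk*, a kinase gene (0.902), *Mmp24*, a membrane metalloproteinase gene (0.900), and *Klc1*, a kinesin light chain gene (0.887). These points share libraries and group differences, and with so many genes and 9 tumors the ranking is a description. The group differences include the one for which *Igf2* was picked. After removal of the group means, r was 0.749, 0.708, 0.845, 0.816 and 0.782 for these genes in this order, and other genes then ranked highest. *Mmp24* spanned 1.21 to 17.7 CPM and *Ism1* 4.10 to 12.3 CPM, whereas *Fam78b* moved only between 3.25 and 4.54 CPM.
Of the members, *Igfbp6* was most like *Igf2* (r = 0.65, in place 275), followed by *Igfbp7* (r = 0.25) and *Igfbp4* (r = 0.241), and the correlation with *Igf1* was −0.014. These values include the group difference for which *Igf2* was picked, so a gene lower in the shRNA tumors gains in r from that choice. The correlation of *Igf2* with *H19* was 0.199.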

How the data were processed

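The authors isolated RNA from tumor pieces and prepared poly-A libraries with a strand-specific kit. Per the labels and the methods of the study, reads were checked with FastQC, aligned to mm10 with STAR 2.5.3a and counted with featureCounts; the strand setting is not given in the sources used here. The authors deposited raw counts for 19481 genes. They also deposited a normalized signal, CPM, in which each count is divided by 1 factor per tumor, used only to check the counts, and TPM, which was used to compare genes per length. A further 10 columns with fold changes and p-values of the authors' comparisons were not used.

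Total counts were 20653219 to 24047784 per tumor, where 3 counts equal 0.125 to 0.145 CPM; this floor covers counting error only. The counts were fitted in R 4.3.3 with edgeR 4.0.16 (TMM, filterByExpr, robust quasi-likelihood, all 9 tumors, 1 coefficient per group), with Benjamini-Hochberg adjustment over the 14725 genes kept (FDR threshold 0.05). CPM was computed with the TMM factors, and log2 CPM with a prior count of 2. Exact permutation tests were two-sided, with scipy 1.17.1. The SE is the absolute log2 fold change divided by the square root of the quasi-likelihood F statistic. It therefore carries the same information as the test, and for *Igf2* against control it is not to be read as one. The fits were tested on simulated data. RefSeq (GRCm38.p6) gave positions and promoter sequences; all 10 genes matched.

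Alternatives were DESeq2 1.42.0 with its Wald test, its size factors within edgeR, the edgeR likelihood ratio test, earlier edgeR dispersions without a filter, no filter, a minimum of 10 counts per tumor, a fit to the compared groups alone, a replicate block, each tumor left out in turn, a prior count of 0.5, and other measures of level and likeness. The replicate numbers did not pair the tumors. The members and the 11 gene lists were chosen with earlier results of these data known. The genes named are the members, *Tmprss11b*, *H19*, *Insr*, the 5 genes most like *Igf2*, and up to 4 genes of a list with the largest log2 fold change of both shRNAs against control among those with a mean of at least 1 CPM, as none passed the threshold. *Krt5*, *Dsc3*, *Pkp1*, *Pax7* and the untested genes were named after their values were seen.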

Additional observations from a re-analysis of the deposited data

How the results depend on the processing

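No gene passed an FDR of 0.05 with the edgeR quasi-likelihood test in any comparison. Over all genes, the DESeq2 Wald test called 2 for sh2, 41 for sh3, 9 for both shRNAs and 48 for sh3 against sh2. The edgeR likelihood ratio test called 8 for sh3, 8 for both shRNAs and 14 for sh3 against sh2, and earlier edgeR dispersions without a filter called 15, 10, 76 and 27. The cause was not tested. None of the members tested passed in any alternative. With at least 10 counts in every tumor, *Igf2* dropped out and has no value. Tumors with the same replicate number did not deviate together (mean r = −0.099, against 0.052 for other pairs), so the numbers do not pair them. With the replicate block 0 genes were called, with 319, 670, 395 and 741 at an unadjusted p under 0.05 (without it 518, 976, 602 and 1057), and the log2 fold change of *Igfbp2* for sh3 against sh2 was −0.02.

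Of 576 member fold changes under an alternative, 38 turned their sign and 538 kept it. Leaving out each tumor in turn, the log2 fold change for sh2 ran from −0.41 to 0.24 for *Igf1*, −0.0029 to 0.36 for *Igfbp3*, −0.60 to 0.01 for *Igfbp4* and −1.28 to 0.16 for *Igfbp5*. For sh3 it ran from −0.54 to 0.23 for *Igf1*, −0.26 to 0.66 for *Igf1r*, −0.33 to 0.0015 for *Igf2r*, −0.54 to 0.92 for *Igfbp2*, −0.44 to 0.07 for *Igfbp3* and −0.74 to 0.01 for *Igfbp7*. For both shRNAs it ran from −0.42 to 0.23 for *Igf1*, −0.07 to 0.11 for *Igf2r*, −0.06 to 0.71 for *Igfbp2* and −0.10 to 0.15 for *Igfbp3*. For sh3 against sh2 it ran from −0.40 to 0.22 for *Igf1*, −0.65 to 0.28 for *Igf1r*, −0.95 to 0.50 for *Igfbp2*, −0.27 to 0.35 for *Igfbp4*, −0.57 to 0.04 for *Igfbp6* and −0.33 to 0.41 for *Igfbp7*. Also for sh3 against sh2, *Igf1* was at −0.0026 with DESeq2 size factors, −0.0024 with the DESeq2 Wald test and −0.01 with the compared groups alone. Of the 5 genes most like *Igf2*, 2 stayed among the first 5 by Spearman correlation and 0 after removal of the group means, and *Igfbp6* and *Igfbp2* exchanged places 6 and 7 when CPM per kb of GENCODE exons replaced TPM.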
